A study of Drosophila melanogaster with 2 samples.

Results

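Chromosome 4 of Drosophila melanogaster held 402 of the 30000 peaks (1.34%) in a pooled ChIP-seq list for the zinc finger protein CG17802. Members were all pooled-list peaks on that chromosome. They were divided into 107 that were also in the authors' list thresholded for reproducibility between replicates (same interval and same summit offset) and 295 that were not. The 107 were 3.03% of the 3535 thresholded peaks, on a chromosome that makes up 0.980% of the main arms. The study profiled whole embryos, 0 to 14 h old and of mixed sex, from a transgenic line in which the C terminus of CG17802 (gene symbol Nnk) was fused to GFP. It comprised 1 group of 2 biological replicates from that single line, without a second genotype, age or treatment, so no contrast between conditions exists. The labels conflict in 1 respect: a description field speaks of an input control, while CG17802 is given as the antibody target, the assay is given as a factor ChIP-seq and the control is listed as an experiment of its own. Whole embryos mix all tissues and stages of that window, and a weak peak in many cells and a strong one in few cannot be told apart.

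Chromosome 4 is the small dot chromosome of the fly. Its banded arm carries genes interspersed with repeats and is rich in the heterochromatin protein HP1a, yet many of its genes are active, and it is painted by a chromosome-specific protein, POF. CG17802 belongs to the ZAD family of zinc finger proteins, whose N-terminal domain mediates dimerization and whose zinc fingers contact DNA. The DRE (TATCGATA) is the core promoter sequence recognised by the factor DREF, and CGATA is the sequence recognised by the boundary factor BEAF-32.

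The 5 strongest summits are shown because together they hold the range of sequence found at the top of the list. In the stretch printed, they have matches to several searched sequences, to 1, or to none. Each is 121 bp centred on the summit, read 5′ to 3′ in the direction of the named gene, from the RefSeq sequence of Release 6, the assembly dm6. The intervals are chr4:696866-696986 (plus strand) for ey, and on the minus strand chr4:660641-660761 for gw, chr4:1027128-1027248 for PlexA, chr4:867075-867195 for Gyf and chr4:67253-67373 for RpS3A. Capitals mark TATCGATA, CGATA on either strand and the gapped sequence AGTGTGANC, which was ranked highest among gapped 9-base sequences at summits off chromosome 4. A TATCGATA holds CGATA on both strands.
ey: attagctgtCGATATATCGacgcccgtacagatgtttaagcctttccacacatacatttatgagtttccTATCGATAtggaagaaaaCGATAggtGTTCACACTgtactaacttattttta
gw: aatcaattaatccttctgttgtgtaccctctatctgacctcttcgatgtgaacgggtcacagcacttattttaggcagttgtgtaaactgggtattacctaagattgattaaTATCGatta
PlexA: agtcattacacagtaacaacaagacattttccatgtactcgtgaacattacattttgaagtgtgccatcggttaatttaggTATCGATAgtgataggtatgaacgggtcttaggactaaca
Gyf: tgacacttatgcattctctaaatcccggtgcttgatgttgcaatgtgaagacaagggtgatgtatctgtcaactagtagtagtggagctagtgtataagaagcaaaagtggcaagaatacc
RpS3A: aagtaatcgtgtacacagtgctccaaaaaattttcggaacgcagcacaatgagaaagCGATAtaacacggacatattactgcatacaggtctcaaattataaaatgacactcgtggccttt

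The ey window held a DRE, 5 matches to CGATA on the 2 strands and a match to AGTGTGANC on the strand opposite to the gene. The PlexA window held a DRE and the RpS3A and gw windows a CGATA outside a DRE. The printed Gyf window held none of these sequences although its peak ranked 16 of the 30000 in the pooled list. No match says only that these letters are not in that window. The wider windows of 201 bp, used for the shares below, held 1 CGATA for Gyf and 2 for gw.

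Of the chromosome 4 peaks in the pooled list, 26.6% were thresholded (Wilson 95% interval 22.5 to 31.1%), beside 11.8% of all pooled peaks. The share was 15.8% in segments of the large arms close to the centromere (14.3 to 17.3%, n = 2387) and 11.2% in the rest of those arms (10.8 to 11.6%, n = 27209). These intervals, like all intervals and limits here, cover counting error only. The pooled list gives each peak a signal, a value deposited by the authors that ranks peaks within 1 list and is no fold enrichment. Signals of the 107 ran from 112.0 to 12347 with a median of 400.4, and those of the 295 others from 33.9 to 108.6 with a median of 50.8. The thresholded peak of lowest signal lay in an intron of CaMKI, a calmodulin-dependent kinase (112.0, pooled rank 3433), followed by 1 in an intron of Cadps (112.1). Just outside the threshold came summits near the start of asRNA:CR44031 (108.6, rank 3597), in a coding exon of PlexA (108.5) and 335 bp upstream of Sox102F (105.9).

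The strongest peak of the chromosome lay 763 bp upstream of a transcription start site (TSS) of ey, the Pax6 gene that directs eye development. It was intergenic, with its summit at position 696926 between 2 divergent genes, ey (TSS at 697689) and myo (TSS at 696055). The peak is thus upstream of both, and is named here for ey because that TSS is nearer. Its signal was 12347 in the pooled list, 3888 in replicate 1 and 8513 in replicate 2. It ranked 9, 8 and 9 in those 3 lists. A weaker thresholded summit, 360 bp upstream of another TSS of ey, had a signal of 384.0 pooled, 94.4 in replicate 1 and 295 in replicate 2. The peak at gw, which encodes the GW182 scaffold of microRNA silencing, had 11229, 3535 and 7690 in the same order, with its summit 93 bp upstream of the TSS. PlexA, a receptor for semaphorins, followed with 9178, 2427 and 6796. Gyf, which encodes a GYF domain protein, had 8618, 2835 and 5823. Replicate 2 gave the higher value for each of the 4 genes, and each list has its own scale. The ranks of these 4 differed between replicates by no more than 5 places.

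RpS3A, the only ribosomal protein gene of the list of translation genes here, had a signal of 6673 in the pooled list, 2226 in replicate 1 and 4416 in replicate 2. CaMKII, a kinase of synaptic plasticity, had 6573, 2109 and 4516. unc-13, which encodes a priming factor of synaptic vesicles, had 5727, 1826 and 3950. Both kinase and priming factor peaks lay within 150 bp upstream of a TSS, at 122 and 36 bp. 4E-T, the transporter and repressor of the cap-binding protein eIF4E, had 5416, 1692 and 3731. MED26, a Mediator subunit, had 2 summits in 1 interval, with 5119 at 67 bp upstream and 3663 at 426 bp downstream of the TSS.

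The remaining peaks of the 25 strongest ran from 3993 at Crk, an SH2 and SH3 adaptor, to 1965 at CG11360. They included asRNA:CR44030 (3858), the semaphorin receptor PlexB (3808), the small GTPase Arl4 (3604), anne (3500), the tau tubulin kinase homologue Asator (3287) and CG31998 (3263). Below those were the calsyntenin gene Cals (2871), the complex I subunit ND-49 (2760), Rad23 of nucleotide excision repair (2401), the vesicle release factor Cadps (2349), the GTPase Arf4 (2332) and the spectrin adaptor Ank (2146). Of these 25 peaks 1, the ey peak, lay outside a promoter. The peak at asRNA:CR44030 differed most between the lists among them, at rank 100 in replicate 1 (708.2) and 48 in replicate 2 (2907).

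**Figure D1:**
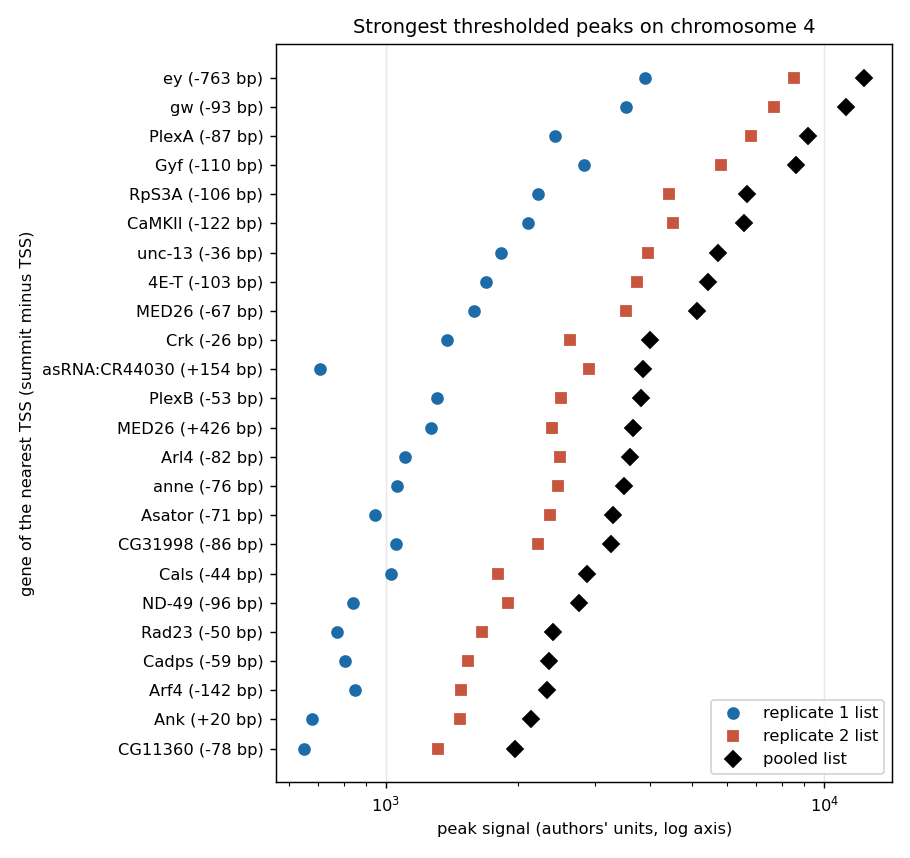
Signal of 24 of the 25 strongest thresholded peaks of chromosome 4 (x axis, authors' units, log scale) in the list of each replicate and the pooled list, by gene of the nearest TSS with the distance of the summit. The order of the peaks is similar in the 3 lists, from 12347 at ey to 1965 at CG11360 in the pooled list, and asRNA:CR44030 has a low replicate 1 value for its rank.

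All 107 thresholded peaks were listed in both replicates, and 98 overlapped a peak among the 3535 highest of each. The authors chose the thresholded list for reproducibility, so this describes that choice. Across the 107, Spearman's rho between the replicates' signals was 0.928, and Pearson's r of their log10 values was 0.952. Across the 157 others listed in both, rho was 0.199 and r was 0.214. Those peaks missed that threshold and span a narrow range of low pooled signals, so the lower coefficients also describe that choice. These points share their libraries and are not independent. The signal in replicate 2 was a median of 2.23 times that in replicate 1 (lower and upper quartile 1.99 and 2.80). Among the 39 thresholded peaks with a pooled signal of 1000 or more, ranks in the replicates differed by at most 2.08 times, and among the 68 weaker ones by up to 14.6 times.

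The peaks that differed most were weak ones. A PlexA intron peak 534 bp from the TSS ranked 500 in replicate 1 (signal 133.4) and 7283 in replicate 2 (48.5). A peak 747 bp upstream of pan, which encodes the TCF factor of Wnt signalling, ranked 13045 in replicate 1 (20.2) and 1533 in replicate 2 (154.8). A neighbouring pan peak at 966 bp upstream did not show such a gap, with ranks of 941 and 589. Values of some summits are not independent, since 3 replicate 1 peaks were each the match of more than 1 pooled summit. The 107 summits lay in 99 distinct intervals.

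**Figure D2:**
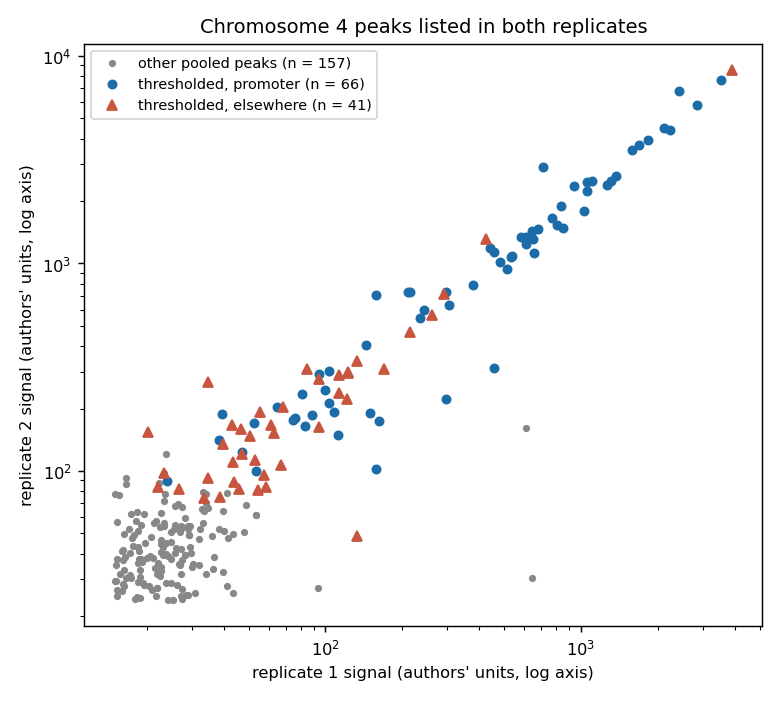
Signal in replicate 1 (x axis) against replicate 2 (y axis), authors' units on log scales, for chromosome 4 peaks listed in both replicates: thresholded promoter peaks, thresholded peaks elsewhere and other pooled peaks. The 107 thresholded peaks spread along a line (rho 0.928), and the 157 others gather at low values (rho 0.199) apart from 2 that share the replicate 1 peak of a thresholded summit, 1 of them at lgs (608.3).

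Summits of the thresholded peaks lay within 500 bp of an annotated TSS, here called a promoter, for 66 of 107 (61.7%, Wilson 95% interval 52.2 to 70.3%). The share of all 3535 thresholded peaks was 54.2%. Of the 295 other chromosome 4 peaks it was 15.6% (11.9 to 20.2%), and 10.7% of the bases of the chromosome lie within that distance. Thresholded peaks outside promoters comprised 16 intergenic, 16 intronic, 3 coding exon, 3 untranslated exon and 3 non-coding exon summits. Coding exons held 2.80% of the thresholded summits (0.958 to 7.92%) and 31.2% of the others (26.2 to 36.7%), while 18.9% of bases lie in coding exons outside promoter windows. The promoter share depends on the definition, and was 48.6% at 200 bp and 81.3% at 1000 bp.

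Promoter peaks of the chromosome had a higher median signal than the others, although the strongest peak of all was not at a promoter. The median was 1474 (n = 66), beside 205.2 for the 41 others, and promoter peaks made up 36 of the 39 peaks with a signal of 1000 or more. Peaks at that level were 36.4% of the thresholded peaks on chromosome 4, 26.3% in the centromere-proximal segments and 2.39% in the rest of the large arms. Promoters held 82 of 99 such peaks in those segments and 65 of 73 in the rest. The segments had similar medians to chromosome 4, 1443 at promoters (n = 144) and 219.2 elsewhere (n = 232). In the rest of the large arms the medians were 196.5 (n = 1707) and 165.2 (n = 1345). Of the 36 strongest of the 107, 34 were at promoters, of the next 36, 21, and of the 35 weakest, 11. The 3 strong peaks elsewhere were the ey peak, an intron of Kif3C (1748) and an intergenic summit 2139 bp downstream of the nearest TSS, that of snoRNA:CD-24 (1003). With promoters drawn at 1000 bp, the median signal of promoter peaks fell to 785.9, since weaker peaks were then included.

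Strong summits sat just upstream of the TSS. Of the 66 promoter summits 54 were upstream (81.8%, 70.9 to 89.3%), with a median position of -71.5 bp. Among the 36 with a signal of 1000 or more, 29 lay 20 to 150 bp upstream (80.6%, 65.0 to 90.2%), and among the 30 weaker ones 11 did (36.7%, 21.9 to 54.5%). Among the 46 promoter summits outside the threshold 7 did (15.2%, 7.57 to 28.2%), with a median position of 5 bp. The same position was held by 74.1% of strong promoter peaks on the other chromosomes (66.5 to 80.6%, n = 147), with a median of -63 bp. The interval for chromosome 4 and that for the other chromosomes overlap.

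**Figure D3:**
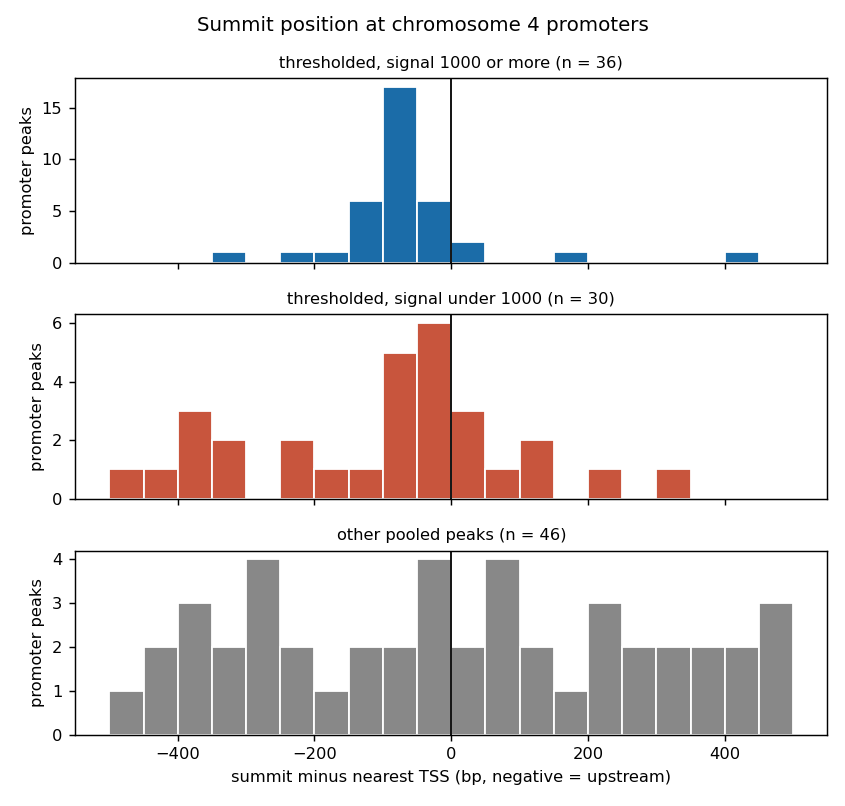
Number of chromosome 4 promoter peaks (y axis) by position of the summit relative to the nearest TSS (x axis, bp, negative upstream, bins of 50 bp), for thresholded peaks with signals of 1000 or more, thresholded peaks under 1000 and other pooled peaks. The strong peaks gather upstream of the TSS (29 of 36 at 20 to 150 bp), and the other pooled peaks spread over the whole window.

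Of the 80 protein-coding genes on chromosome 4, 52 had a thresholded summit within 500 bp of a TSS (65.0%, Wilson 95% interval 54.1 to 74.5%), beside 16.8% of all protein-coding genes. A further 10 had only a peak outside the threshold and 18 had no pooled-list peak there. The strongest promoter peak of the 52 ran from 152.5 at the kinesin gene Kif3C to 11229 at gw, with a median of 1886. For 4 of the 52 that peak lay closer to a TSS of another gene. Of the 34 other annotated genes, 11 had such a peak (32.4%). The bound and unbound coding genes had similar lengths, with medians of 10090 and 9955 bp, and a median of 1 TSS each.

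Members of the 10 groups of genes are given beside the 65.0% of all coding genes on the chromosome that had a thresholded promoter peak. The groups hold 3 to 15 genes, and differences between them were not tested. All 5 genes of translation and mRNA regulation had 1, with signals of 11229 at gw, 8618 at Gyf, 6673 at RpS3A, 5416 at 4E-T and 813.5 at eIF4G1, a cap-complex scaffold. All 5 genes of axon guidance and adhesion did too, namely PlexA (9178), Crk (3993), PlexB (3808), Ephrin (1427), the ligand of the Eph receptor, and Eph itself (1175). In the latter group every signal was above 1000. All 7 genes of kinases, GTPases and lipid signalling had a peak, among them Dyrk3, which shares the 2349 peak with Cadps and lies farther from it, CaMKI (1040) and the phosphoinositide kinase gene PIP4K (937.2). PlexA, a receptor, was in the list of this group although it falls outside the group's name. PlexA and Asator were each also counted in another group. These groups were chosen with earlier results on the data known, and the shares describe them only.

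Developmental transcription factors were the group with the smallest share, 5 of 15 (33.3%). Those with a peak were lgs, the Legless cofactor of Wnt signalling (1862), pho, a DNA-binding Polycomb group protein (1560), ey (384.0), onecut (324.5) and Mitf, a regulator of lysosomal genes (256.6). The 10 without were toy, the second Pax6 gene, ci, the effector of Hedgehog signalling, pan, sv, a Pax2 gene, zfh2, Sox102F, fd102C, NfI, dati and fuss. Some had weak thresholded peaks within or near the gene, such as the intergenic peaks upstream of pan described above and 1 in a coding exon of Sox102F (136.6). Of the 3 ligands of the TGF-beta family, myo (248.0) and mav (180.5) had a promoter peak and Actbeta, an activin, had none. The signals of both ligands are under the median of 400.4 for thresholded peaks of the chromosome. The strongest peak of the chromosome, named here for ey, also lies upstream of myo, outside its promoter window.

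The remaining groups lay near the 65.0% of all coding genes on the chromosome, at 71.4 to 80.0%, so their counts only list the genes. Genes of synaptic transmission had 5 of 7. Besides unc-13 and Cadps these were Slip1 (1528, closer to CG46466), the metabotropic glutamate receptor mGluR (785.9) and the glutamate receptor Ekar (318.5). Syt7, a synaptotagmin, and Gat, a GABA transporter, had no thresholded promoter peak. In mitochondrial metabolism and DNA repair 3 of 4 had 1: ND-49, Rad23 and ATPsynbeta, a subunit of ATP synthase (1596, closer to CG11076), with Tdg the exception. In transcription and chromatin 4 of 5 had 1, namely MED26, Asator, pho and the host cell factor gene Hcf (1910), and Pur-alpha did not. Asator, a kinase gene, and pho were each also counted in another group, and the TFIID gene Taf3 (528.6) was in none. The list of cytoskeleton and muscle also held the calsyntenin gene Cals, which falls outside that name. In it Cals, Ank and Kif3C had a peak and the titin-like gene bt did not. In transporters and carriers the lipophorin gene apolpp (1942), the zinc transporter Zip102B (1612) and the calcium pump PMCA (394.8) had 1 and yellow-h did not.

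**Figure D4:**
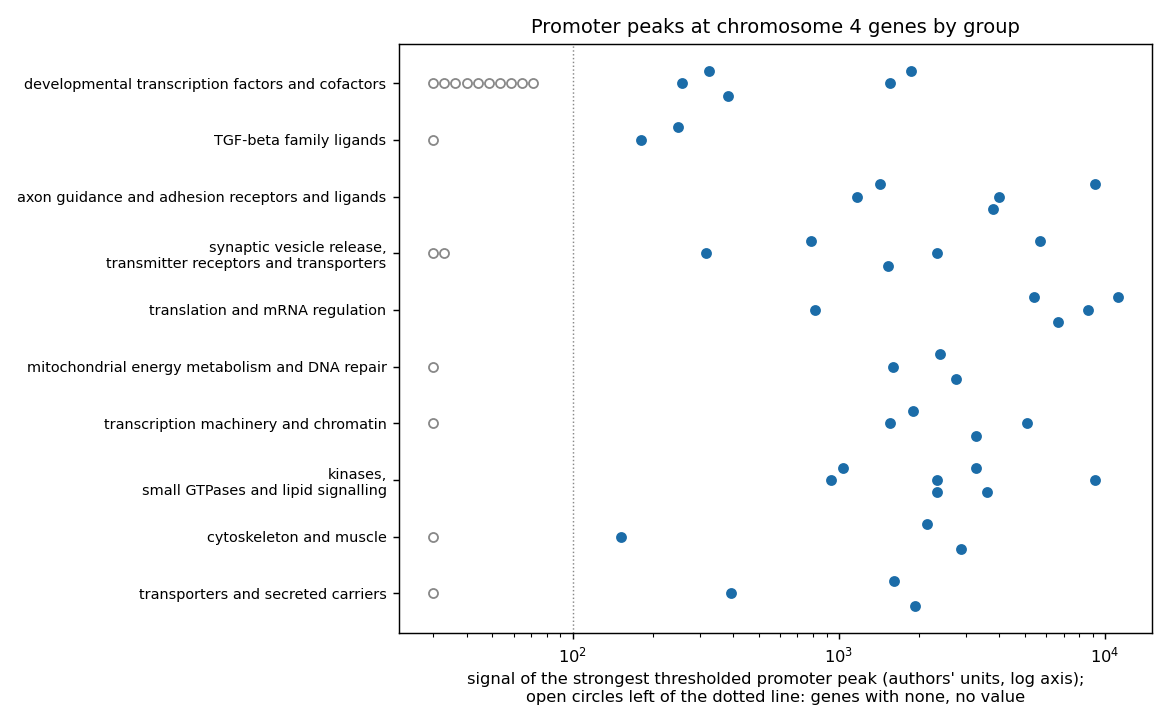
Signal of the strongest thresholded promoter peak of each gene (x axis, authors' units, log scale) by group of chromosome 4 genes. Filled points are genes with such a peak, and open circles left of the dotted line are genes without, placed there without a value. Developmental transcription factors have the most open circles (10 of 15), while the axon guidance group has none and all its points lie above 1000.

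Many thresholded summits were closely spaced, with long gaps between others. The first and the last lay 42535 and 1260551 bp from the start of the chromosome. Neighbouring summits were a median of 2870 bp apart, beside 15109 bp on the other chromosomes. Summits that share an interval are counted separately here, and the centromere-proximal segments were not split off from the other chromosomes. Among the 106 gaps, 12 were longer than 30 kb. The longest, 97845 bp (chr4:210198-308043), ran from the Crk promoter to the Rad23 promoter. It held 8 protein-coding genes, of which all but Crk had no thresholded promoter peak: CG31999, yellow-h, CG1674, dpr7, RhoGAP102A, NfI and Syt7. The pooled list had 14 other summits in that stretch. Another gap of 72997 bp (chr4:497889-570886) held zfh2, Tdg and Pur-alpha, and 1 of 83390 bp (chr4:704291-787681) held bt.

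Several introns held peaks away from any TSS. Cadps had 4 intronic thresholded summits, with signals of 841.4, 464.9, 340.1 and 112.1, and replicate values of 262.1 and 564.8 for the strongest. The farthest of these lay 28668 bp from the nearest TSS. mGluR had 3 intronic summits, at 221.7, 158.6 and 116.8. Of the 41 non-promoter peaks, 21 lay within 1000 bp of a TSS and the median distance was 966 bp.

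The DRE lay within 100 bp of 18 of the 107 thresholded summits (16.8%, Wilson 95% interval 10.9 to 25.03%), beside 2.34% of windows centred 500 bp to either side. Both strands were searched. Among other chromosome 4 peaks the share was 3.39% (1.85 to 6.13%), and 4.86% of 201 bp windows around every TSS on chromosome 4 held it, as did 5.43% of those off it. Thresholded peaks in the centromere-proximal segments had 8.51% (6.09 to 11.8%) and those in the rest of the large arms 5.87% (5.09 to 6.76%). At promoters alone the share was 15.2% on chromosome 4 (8.44 to 25.7%, n = 66) and 10.2% in the rest of the large arms (8.85 to 11.7%, n = 1707), with overlapping intervals. At signals of 1000 or more the intervals also overlap, 20.5% on chromosome 4 (10.8 to 35.5%, n = 39) and 19.2% in the rest of the large arms (11.8 to 29.7%, n = 73). The median distance from the summit to the nearest DRE was 51 bp. With a window of 50 bp on each side the share on chromosome 4 was 7.48%.

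The DRE peaks included ey, PlexA, MED26, Crk, Hcf, Eph, PIP4K, eIF4G1 and Taf3, which encodes a TFIID subunit. A DRE lay within 100 bp of a TSS in 9 of the 52 coding genes with a thresholded promoter peak and in 0 of the 28 without, which allows a share of up to 10.7%. CGATA lay at 50.5% of the 107 summits and 28.0% of their flanks, and at the TSS of 37 of 52 bound and 11 of 28 unbound genes. These counts include every DRE, since a DRE holds CGATA. The share was 40.7% at thresholded summits of the centromere-proximal segments and 32.7% in the rest of the large arms. Of TSS windows on chromosome 4, 40.0% held CGATA. AGTGTGANC was chosen after the data were seen, from the 500 strongest summits off chromosome 4, of which 10.8% held it beside 0.700% of their flanks. On chromosome 4 it lay at 9 of 107 summits (8.41%, 4.49 to 15.2%), at 0 of 214 flanks, which allows up to 1.40%, and at 0 of the 295 other peaks, which allows up to 1.02%. It matched 3.24% of TSS windows on chromosome 4 and 4.28% of those off it. Thresholded peaks had 5.85% in the centromere-proximal segments (3.9 to 8.7%) and 5.05% in the rest of the large arms (4.32 to 5.88%), with intervals that overlap that of chromosome 4. At signals of 1000 or more, the shares were 17.95% on chromosome 4 and 17.81% in that rest. The sets off chromosome 4 include summits from which the sequence was chosen. Among the 9 matches to AGTGTGANC on chromosome 4 were ey, the weaker MED26 summit, Arl4, Rad23, Cadps, apolpp and Kif3C.

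Most strong summits held neither sequence. Of the 25 strongest, 17 had neither a DRE nor AGTGTGANC within 100 bp, and of all 107, 24 had at least 1 of them (22.4%, 15.6 to 31.2%). Motif 1 (GGTCACAC), the site of M1BP, lay at 3 of 107 (2.80%), beside 3.93% of thresholded peaks in the rest of the large arms. With C at N, AGTGTGANC holds the reverse complement of GGTCACAC, so these searches overlap. Some matches to AGTGTGANC, at summits or at TSSs, can therefore be Motif 1 sites. How many were shared was not counted. An E-box promoter element (CAGCTGTT) lay at 0 of 107, which allows up to 2.80%, beside 1.60% in the centromere-proximal segments and 3.97% (3.33 to 4.72%) in the rest of the large arms. It matched 1.62% of TSS windows on chromosome 4, which is within that limit, and 4.65% of those off it. The searched cores of CTCF (AGGGGGCG), ZIPIC (CAGGGTTG), CLAMP (GAGAGAGA) and Zelda (CAGGTAG) also lay at 0 of 107. Their shares in the rest of the large arms, 0.393, 1.54, 1.80 and 0.852%, are within the same limit, so a difference was not detectable with this number of peaks. TATAAA lay at 39.3% of summits and 41.1% of flanks. The median GC content was 34.8% at thresholded summits and 31.6% in their flanks, and 38.8% and 33.8% for the other peaks, so base composition differs between these windows.

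**Figure D5:**
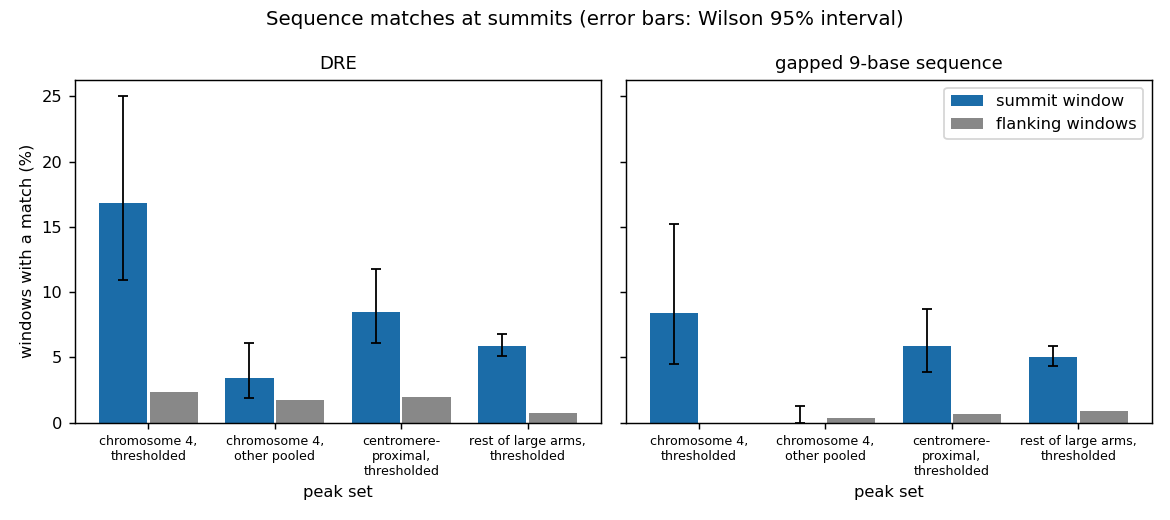
Share of 201 bp windows with a match (y axis, percent) to the DRE and to the gapped 9-base sequence, for summits and for flanks 500 bp away, in 4 sets of peaks. Bars are shares and error bars Wilson 95% intervals. DRE matches reach 16.8% at thresholded chromosome 4 summits and 3.39% at other chromosome 4 peaks, and the gapped sequence 8.41% and 0.

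Annotated transposable elements, which make up 24.8% of the bases of chromosome 4, held 14 of the 107 thresholded summits (13.1%, Wilson 95% interval 7.96 to 20.8%) and 24.7% of the others (20.2 to 29.97%). Of the 14, 9 lay in INE-1, a short non-autonomous element abundant on this chromosome. That is 8.41% of thresholded summits, beside 13.2% of the others and 7.22% of the bases of the chromosome. The others lay in copies of 1360, Cr1a and F. Of the 66 promoter peaks 2 lay in an element, as did 12 of the 41 others. How uniquely reads map to these copies was not measured here. Counting any overlap of the interval in place of the summit raised 13.1% to 23.4%.

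The INE-1 summits had signals from 112.0 to 1748. The strongest, in an intron of Kif3C, had 424.0 in replicate 1 and 1308 in replicate 2, and the next, in lncRNA:CR46488, had 673.1 pooled, 214.5 and 467.2. Ank had 1 at 898 bp upstream (295.0) and 1 in an intron (127.7), and CaMKI and mGluR had 1 each in an intron. The windows of the 2 INE-1 summits that held both a DRE and AGTGTGANC are shown because they share 1 arrangement. Both are copies of the same element. They are read in the direction of the element, at chr4:1148094-1148214 (minus strand) and chr4:963300-963420 (plus strand, in an intron of fuss), with capitals as above.
INE-1 in Kif3C: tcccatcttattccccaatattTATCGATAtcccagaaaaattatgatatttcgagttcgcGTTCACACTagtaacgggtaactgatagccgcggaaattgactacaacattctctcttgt
INE-1 in fuss: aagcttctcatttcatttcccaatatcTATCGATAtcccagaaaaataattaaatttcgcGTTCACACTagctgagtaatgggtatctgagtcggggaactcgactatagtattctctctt

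In both windows the DRE came first and the match to AGTGTGANC, on the opposite strand, followed downstream and lay within 5 bp of the summit. Of the 344 INE-1 copies on chromosome 4, 7 of the 9 with a thresholded summit held a DRE (77.8%). Among the 35 copies with only another pooled summit 13 did (37.1%), and among the 300 without a pooled summit 43 did (14.3%). The median lengths of these copies were 357, 349 and 159 bp, in the same order, and the 63 copies with a DRE had a median of 357 bp. On the other chromosomes a DRE was in 5 of 14 copies with a thresholded summit (35.7%), 35 of 93 with only another pooled summit (37.6%) and 13.5% of those without. Of the 63 copies with a DRE, 7 had a thresholded summit (11.1%), beside 5 of 281 on the other chromosomes (1.78%). Most INE-1 copies with a DRE on chromosome 4 had no thresholded summit. Both sequences lay in 3 copies on chromosome 4, of which 2 had a thresholded summit. On the other chromosomes 13 copies held both, and 0 of them had a thresholded summit.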

How the data were processed

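Binding of a GFP fusion of CG17802 was measured by ChIP-seq in 1 group of 2 embryo replicates, numbered per the labels. The authors deposited 4 narrowPeak lists on dm6, per the labels: 1 per replicate, a pooled list, and a list thresholded for reproducibility between replicates. The deposited signal column, of unstated scale, ranks peaks within a list. The deposited −log10 q-value column was not used for any printed result, and the deposited column of other values gave the summit offset. Which aligner, caller and cutoff were used is not stated in the sources used here. The depth of the libraries is unknown and gives no precision.

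Genes, TSSs and transposable elements came from Ensembl release 115, with 18277 genes once elements were left out. Centromere-proximal segments were the positions above 22 Mb on 2L, 23 Mb on 3L and 22.5 Mb on X, and below 6 Mb on 2R and 4.5 Mb on 3R. A replicate's value is that of the overlapping peak (at least 1 bp) with the nearest summit. Motif windows were 201 bp on both strands. Shares carry Wilson 95% intervals, and a count of 0 a limit of 3 counts. With 1 group, and peaks that are not replicates, no test was made and no p-value computed. The code was tried on simulated data. Alternatives covered the promoter distance, the TSS set, a stricter threshold, the overlap rule, the window and each replicate alone. Python 3.11.15, numpy 2.4.6, pandas 2.3.3 and scipy 1.17.1 were used.

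Members, gene groups and motifs were chosen with earlier results of these data known. Genes were named for the 25 strongest peaks (1 is not reported here), for all group members and for the peaks nearest the threshold. Others, at peaks that differ between replicates, distal peaks, long gaps, DRE matches and INE-1 copies, were chosen after their values were seen. Of the names in the groups, 3 did not match a chromosome 4 gene and 3 were repeats.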

Additional observations from a re-analysis of the deposited data

How the results depend on the processing

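Of 55 values under alternatives, 40 stayed in range and 15 moved. The range is the Wilson 95% interval for a share, 1 SD of the 2 replicates' values for a median signal and 1.5 times for a count. The 2 replicates' signals are on different scales, so that SD holds the scale offset and is no measure of replicate spread. For median signals, staying in range or moving therefore says little. The promoter share of thresholded peaks, 61.7%, was 48.6% at 200 bp, 81.3% at 1000 bp and 72.9% for the 1767 strongest of all thresholded peaks. That of the others, 15.6%, was 6.44%, 29.8% and, with 1 TSS per gene, 9.49%. The median promoter signal, 1474, was 785.9 at 1000 bp and 295.5 to 730.8 with 1 replicate left out. The non-promoter median, 205.2, was 367.4 in that stricter set and 49.3 to 165.8 with 1 replicate left out. Values with 1 replicate left out are on that list's own scale. The share thresholded, 26.6%, was 21.1% in that set and 24.7 to 32.6% with 1 replicate left out. The element share, 13.1%, was 23.4% for any overlap, and the DRE share, 16.8%, was 7.48% at 50 bp. Wider windows and stricter sets change these by construction. The count of genes with a promoter peak was 46 to 54 across settings. Counting 1 summit per interval, a setting chosen after seeing the data, gave 58.6% at promoters. No paired analysis was possible because there is 1 group. The thresholded list was made from both replicates, so leaving 1 out used that number of highest peaks of the other list. Depth, mappability and the input signal at these sites limit the results and were not measured.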
